A study of Mus musculus with 16 samples.

Results

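The comparison described here is between 2 preparations of mouse embryonic fibroblasts (MEFs), primary connective tissue cells grown out of embryos, that differ by label in the transgene they carry. In the first, green fluorescent protein (GFP) is driven by an Actin promoter, which is active in most cell types. In the second it is driven by the promoter of Pou5f1, a gene used by pluripotent and germ cells and silent in fibroblasts. Both were kept in DMEM with 15% fetal bovine serum and gentamicin, and no treatment is given for either. The arrays were assigned by these labels: 2 Actin-GFP and 2 Pou5f1-GFP arrays, or 4 of the 16 in the series. The other 12 hold R1 embryonic stem (ES) cells and 5 lines of induced pluripotent stem (iPS) cells, 2 arrays each. The stated purpose was to set the iPS lines against ES cells and MEFs, so the difference between the MEF types is one that the MEF reference itself contains. The 2 arrays of a type are labelled biological replicates, but mouse strain, embryonic age, sex, passage and number of embryos are not given. P-values therefore measure only the spread between arrays of a group, estimated over all 16 arrays, which may be technical.

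MEFs are made from most of an embryo's body, and such cultures hold fibroblasts beside other cells that attach to plastic. Macrophages arise early in the embryo, live in its connective tissues and take up debris through scavenger and Fc receptors. Skeletal muscle forms from precursors in somites and limb buds that fuse into fibres and switch on contractile proteins. Fibroblasts keep the Hox code of the place they came from, with the later-numbered genes of each cluster used towards the tail and the ends of the limbs. Imprinted genes are read from 1 parental copy, and many of them act in fetal growth.

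RNA was measured on Illumina MouseWG-6 version 1.1 BeadChips, glass slides that carry several arrays and read each gene with bead-bound probes. By the array names, the first replicate of both MEF types lay on 1 slide and the second on another, so each slide allows the comparison on its own. Between 37.25% and 38.82% of probes were detected on the 4 MEF arrays, with a median of 37 beads behind each signal. Signals are given as normalized log2 values, on which a difference of 1 is a factor of 2 and the dimmest detected probe of an MEF array lay between 4.89 and 4.96. A gene detected on neither array of a type is called at background there, and its difference is given as a bound against that level ("at least"). A difference is the Actin-GFP minus the Pou5f1-GFP mean, with its standard error. Across genes, the replicates correlated at 0.995 in each type, and arrays of different types correlated between 0.981 and 0.984.

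The GFP reporter followed the labels. The probe for enhanced GFP gave 13.01 and 13.10 on the Actin-GFP arrays and 4.25 on each Pou5f1-GFP array, which is background. Pou5f1 was low in both types, at 4.74 and 4.61 in Actin-GFP and 5.08 and 4.59 in Pou5f1-GFP MEFs, and its difference was not called (-0.16 ± 0.16, SE). The fibroblast label was checked against its markers. All 67 tested genes of a list of 71 fibroblast and matrix genes were detected on MEF arrays, and their summed signal on a linear scale was 220600 and 218000 in Actin-GFP against 222100 and 222700 in Pou5f1-GFP MEFs. Vim, an intermediate filament protein of mesenchymal cells, read 14.24 and 14.21 against 14.33 and 14.23. Thy1, a surface protein of fibroblasts, read 12.37 and 12.25 against 12.37 and 12.38.

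Of 9 tested sex-linked genes, 2 were higher in Actin-GFP MEFs, 2 were lower and 5 were not called. Eif2s3y, a Y-linked gene for a subunit of a translation factor, had 4.35 and 4.30, or background, on the Actin-GFP arrays against 8.67 and 8.93 on the others, at least 14.7-fold lower. Kdm5d, a Y-linked histone demethylase, was detected in both, at 5.51 and 5.52 against 6.52 and 6.55 (-1.03 ± 0.16, adjusted p = 0.000379). Xist, the RNA that silences an X chromosome in female cells, ran the other way, with 8.45 and 8.73 in Actin-GFP against 7.31 and 7.29 in Pou5f1-GFP MEFs (1.29 ± 0.14, adjusted p = 1.62e-05). Eif2s3x, on the X chromosome, was higher by 0.54 ± 0.15. Y-linked Uty was not called (-0.09 ± 0.26), and Ddx3y and Usp9y were at background on all 4 MEF arrays. The part of these differences in those below was not tested.

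Of 15642 genes tested, 1795 were called at an adjusted p under 0.05 by limma, a linear model with a spread shared across genes, with 832 higher and 963 lower in Actin-GFP MEFs. That is 11.5% of genes, 5.32% higher and 6.16% lower, against which each group of genes is read below. At least a 2-fold difference was reached by 460 of the called genes, or 2.94% of those tested, 238 higher and 222 lower. The median difference over all genes was -0.00168. All 1795 called genes had the same direction on both slides and no overlap between the arrays of the types, although 51.6% of all tested genes had no overlap. With the slide as a block, 2350 genes were called. Without the first Pou5f1-GFP array 1129 were called, and without the first Actin-GFP array 1140. Higher genes made up 46.4% of the called genes, and 56.4% when the arrays were not normalized to each other.

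**Figure D1:**
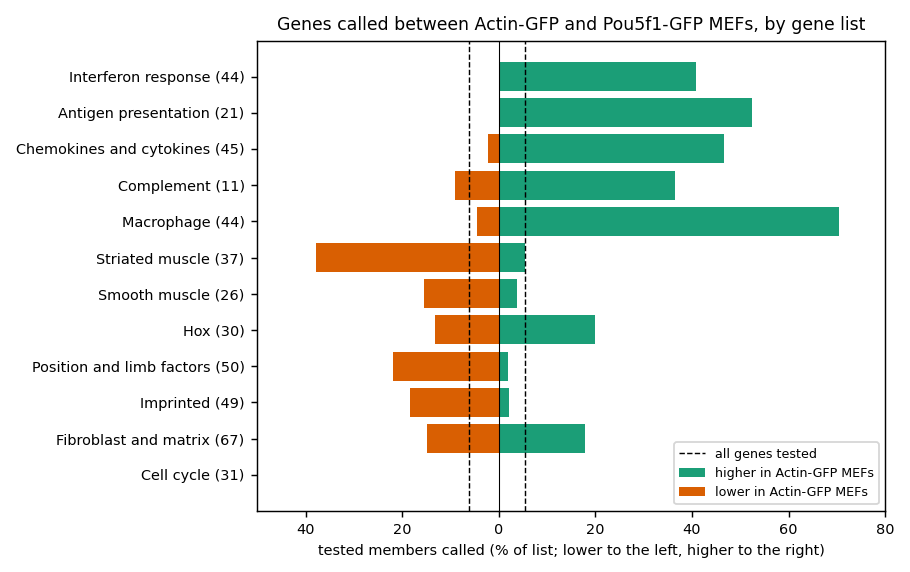
Share of the tested members of 12 of the gene lists called higher (to the right) or lower (to the left) in Actin-GFP than in Pou5f1-GFP MEFs, in percent, with the number of tested members in parentheses. The dashed lines mark all genes tested, 5.32% higher and 6.16% lower. The macrophage and other immune bars lie to the right, while the longest bars to the left among these 12 are striated muscle (37.8%) and position and limb factors (22%).

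The 12 largest rises in Actin-GFP MEFs included 7 genes of the macrophage list, taken up with that list below. Serpina3n, an inhibitor of serine proteases induced in inflammation, read 9.64 and 9.86 against 5.81 and 6.03, a difference of 3.83 ± 0.15 (adjusted p = 4.70e-10). RAET1C, of a family of near-identical ligands for the natural killer cell receptor NKG2D, read 7.25 and 7.22 on the Actin-GFP arrays, at least 5.02-fold above the background of the other type. In ES cells and the 5 iPS lines its group means lay between 6.65 and 7.76, so Pou5f1-GFP MEFs alone of the 8 groups had no detected signal. Ptprv, a receptor-type phosphatase, and Slco4a1, an organic anion transporter, were higher by 2.75 ± 0.13 and 2.50 ± 0.26. Mmp13, a collagenase, was higher by 2.25 ± 0.15.

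Among the 12 largest falls, several probes were near an on-off pattern. Adh7, an alcohol dehydrogenase that acts on retinol, read 9.08 and 9.14 in Pou5f1-GFP MEFs. It was not above background on any other array of the series and at least 18.2-fold lower in Actin-GFP MEFs. A second Adh7 probe was at background on all 4 MEF arrays. Pdrg1, a small chaperone-like protein, was at least 16.5-fold lower in Actin-GFP MEFs, which alone of the 8 groups had no detected signal. Its mean was 8.97 in Pou5f1-GFP MEFs and between 8.78 and 9.18 in ES cells and the lines. Pdrg1, like Rpl29, Ndufb10, Fcer1g and Rian below, was read by 1 probe. Which transcript the probes with such patterns read was not checked.

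Rpl29 and Ndufb10, a ribosomal protein and a subunit of respiratory complex I, gave a different picture: Pou5f1-GFP MEFs stood alone. The Rpl29 probe read 10.97 and 10.87 there, 6.0 and 6.38 in Actin-GFP MEFs, and had means between 6.85 and 7.18 in the other groups (-4.73 ± 0.17 between the MEF types). Ribosomal protein genes have many near-identical processed copies, and which of them the probe reads is uncertain. Ndufb10 read 9.77 and 10.09 in Pou5f1-GFP against 6.45 and 7.16 in Actin-GFP MEFs, with means between 6.38 and 6.72 elsewhere. B3galt6, an enzyme that builds the linker of proteoglycans, was lower by 3.43 ± 0.18 on its main probe, whereas a second probe read 5.79 and 5.51 against 6.06 and 5.73. The other falls were Mcub, a regulator of mitochondrial calcium uptake (at least 4.38-fold lower), Pclaf, a partner of the replication clamp (-2.60 ± 0.12), Cenpq, a centromere protein (-2.44 ± 0.21), and Col26a1, a collagen-like protein (-2.36 ± 0.18), beside Eif2s3y, Fcer1g and Rian.

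Macrophage genes were higher in Actin-GFP MEFs across most of their list. Of 44 tested genes, 31 were higher in Actin-GFP MEFs, 2 were lower and 11 were not called, so that 75% were called against 11.5% of all genes. The median difference was 1.35, with 1.22 on the first slide and 1.43 on the second. Their summed linear signal was 21440 and 22580 in Actin-GFP against 7498 and 7377 in Pou5f1-GFP MEFs. The mean log2 signal of the list was 7.50 and 7.70 in Actin-GFP, 6.46 and 6.49 in Pou5f1-GFP MEFs and between 5.27 and 5.95 on the ES and iPS arrays. Plek and Fcgr1 were detected on the Actin-GFP arrays alone and Fcer1g on the Pou5f1-GFP arrays alone, so the filter set their direction. In bulk RNA, fewer cells of a type and less RNA per cell cannot be told apart.

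The called genes included receptors of the macrophage surface. Fcgr3, an activating receptor for antibody-coated particles, read 9.21 and 9.46 in Actin-GFP and 6.17 and 6.46 in Pou5f1-GFP MEFs, an 8.12-fold difference (3.02 ± 0.17, adjusted p = 2.16e-08). Cd14, the co-receptor for bacterial lipopolysaccharide, read 9.40 and 9.12 against 6.77 and 6.86 (2.44 ± 0.13, adjusted p = 1.27e-08). Csf1r, the receptor for the growth factor that macrophages need to survive, read 7.14 and 7.28 against 4.82 and 5.20 (2.20 ± 0.17), and its second probe was also higher, by 1.13. For all 3 receptors, each Actin-GFP array exceeded both Pou5f1-GFP arrays by well over the gap between replicates. Fcgr2b, the inhibitory Fc receptor, was at background in Pou5f1-GFP MEFs and at least 3.68-fold higher in Actin-GFP MEFs. Adgre1, an adhesion receptor used to mark mouse macrophages, was higher by 1.41 ± 0.14, and Cx3cr1 and Mrc1, the fractalkine and mannose receptors, by 1.32 ± 0.10 and 1.22 ± 0.22.

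They also included genes of the lysosome and of digestion. Lyz2, the lysozyme of macrophages, read 12.56 and 12.35 against 9.93 and 9.99, a 5.62-fold difference (2.49 ± 0.16, adjusted p = 9.59e-08). Ctss, a cathepsin that trims antigens, was higher by 2.26 ± 0.17, Cd68, a lysosomal membrane protein, by 1.67 ± 0.13, Laptm5 by 1.74 ± 0.10 and Gpnmb by 1.38 ± 0.19. Mpeg1, a pore-forming protein of phagosomes, read 8.72 and 9.33 against 6.58 and 6.88. The signalling partners Tyrobp and Trem2 were higher by 1.86 ± 0.30 and 1.93 ± 0.14. The complement subunits C1qa and C1qc were called (1.08 ± 0.14 and 1.43 ± 0.17), while C1qb, at 8.28 and 8.36 against 8.20 and 7.70, was not.

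Several defining macrophage genes were not called higher. Fcer1g, the signalling chain that activating Fc receptors use, went the opposite way: both Actin-GFP arrays were at background, with 4.2 and 4.27, while the Pou5f1-GFP arrays had 8.63 and 8.46, a level at least 12.3-fold higher. It was also at background on every ES and iPS array, and the array holds 1 probe for it. Mmp9, a gelatinase, was lower by 0.63 on the log2 scale (-0.63 ± 0.18). Spi1, the transcription factor that specifies macrophages, read 5.70 and 5.89 against 5.49 and 5.25 and was not called, like Slc11a1, Pf4, Tlr2 and Cybb. For Spi1 and Tlr2 both Actin-GFP arrays were still above both Pou5f1-GFP arrays (0.42 ± 0.19 and 0.47 ± 0.16). Cybb was at background on all 4 MEF arrays. The integrin genes Itgam, Itgax and Itgb2 and the scavenger receptors Msr1, Marco and Cd163 were at background on all 4 MEF arrays. Ptprc, the pan-leukocyte marker CD45, was detected on 1 Actin-GFP array (5.07) and on no other, which was too few for it to be tested. A binding motif of Spi1, GAGGAAGT on either strand within 250 bases before to 50 after the start, was found in 6 of 32 searched macrophage promoters (18.8%) and in 3.47% of all tested genes searched, with 4 of 23 called members and 2 of 9 not called. Promoters on chromosome 18, among them those of Cd14 and Csf1r, were left out of this and the other motif searches. Red cell, mast cell and lymphocyte genes gave 1 call among 10 tested: Kit, a growth factor receptor of mast cells, was not above background in Actin-GFP MEFs, at least 1.07-fold lower (adjusted p = 0.0353). Of the 10, 6 were at background on all 4 MEF arrays.

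**Figure D2:**
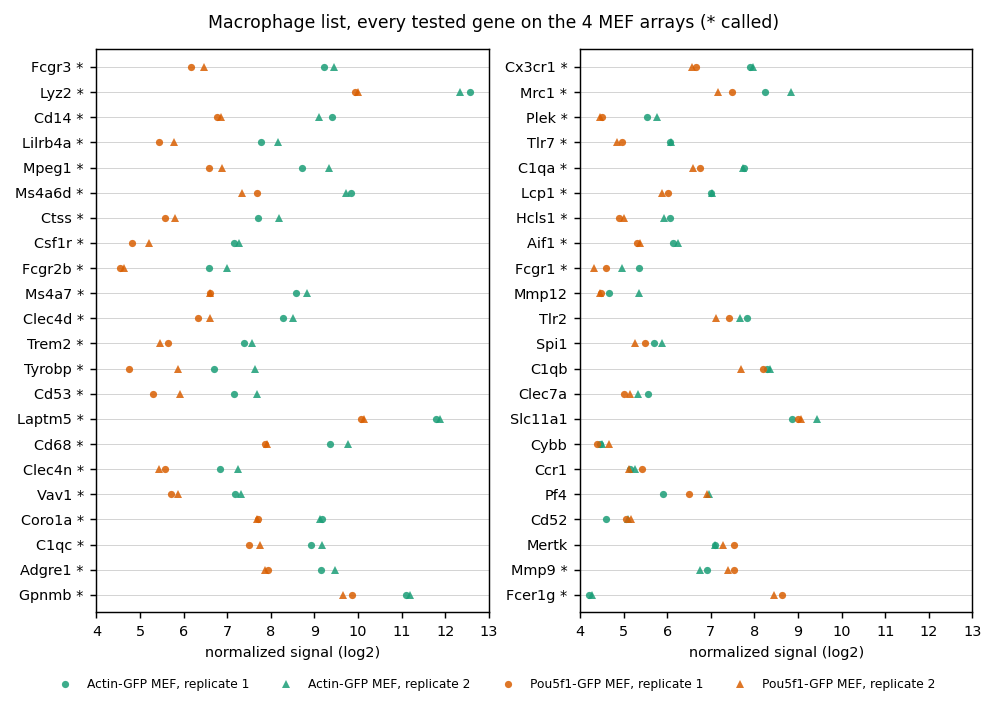
Normalized log2 signal of all 44 tested macrophage genes on the 4 MEF arrays, ordered by the difference between the types. Circles are the first replicate and triangles the second, and an asterisk marks a called gene. Most genes lie to the right in Actin-GFP MEFs on both replicates. Fcer1g, at the end of the order, lies at 4.2 and 4.27 in Actin-GFP and at 8.63 and 8.46 in Pou5f1-GFP MEFs.

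Interferon-response genes were higher in Actin-GFP MEFs in part of the list. Of 44 tested genes, 18 were higher, none was lower and 26 were not called (40.9% called), with a median difference of 0.437 against -0.00168 over all genes. It was 0.550 on the first slide and 0.376 on the second. The 18 include Oas2, which was at background on all 4 MEF arrays (4.88 and 4.70 against 4.35 and 4.30). Only 4 of the 18 reached 2-fold. The count was 9 without the first Actin-GFP array and 9 without the first Pou5f1-GFP array. The macrophage genes moved with it, from a summed signal of 7498 and 7377 to 21440 and 22580, and their part in this difference and in those of antigen presentation, chemokine and complement genes was not tested.

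Usp18, which removes the ubiquitin-like protein ISG15 and damps interferon signalling, read 8.95 and 8.51 in Actin-GFP and 7.56 and 7.47 in Pou5f1-GFP MEFs (1.22 ± 0.23, adjusted p = 0.00249). Eif2ak2, the kinase PKR that senses double-stranded RNA, read 10.26 and 10.17 against 9.0 and 9.05 (1.19 ± 0.12, adjusted p = 5.44e-06). Rsad2, or viperin, read 7.55 and 6.89 against 6.17 and 6.19 (1.04 ± 0.18). Each of these genes was higher on both Actin-GFP arrays than on either Pou5f1-GFP array, as was every gene called higher. Mx2, an antiviral GTPase, was at background in Pou5f1-GFP MEFs and at least 1.98-fold higher in Actin-GFP MEFs. Other members of the same pathway hardly differed. Bst2, which tethers virions to the cell, read 10.91 and 10.89 against 10.92 and 10.90, and Ifit2 read 7.75 and 7.53 against 7.64 and 7.58. Among transcription factors that act in the response, Stat2 (0.41 ± 0.21), Irf7 (0.20 ± 0.19) and Irf9 (0.42 ± 0.16) were not called.

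The promoters of 2 called members, Gbp3, a guanylate-binding GTPase, and Rsad2, are shown because they carry the letters of the interferon-stimulated response element. Each is the 150 bases before the gene's start on its own strand (RefSeq, GRCm38.p6), at chr3:142559894-142560043 on the plus strand and chr12:26456453-26456602 on the minus strand. Capitals mark matches to GAAANNGAAA, searched on both strands, here on the opposite strand, and in Gbp3 2 matches overlap.
Gbp3: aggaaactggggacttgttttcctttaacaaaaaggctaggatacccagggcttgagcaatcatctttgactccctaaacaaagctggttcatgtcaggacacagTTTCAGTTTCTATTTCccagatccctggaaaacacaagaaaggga
Rsad2: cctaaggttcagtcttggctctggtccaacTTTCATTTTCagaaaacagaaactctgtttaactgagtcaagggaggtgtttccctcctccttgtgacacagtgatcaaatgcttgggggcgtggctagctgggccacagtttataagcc
In the window from 250 bases before to 50 after the start, 3.41% of the 9908 tested genes whose promoter was searched held such a match. Among tested interferon-response genes it was 15 of 33, or 45.5%. The share was 5 of 11 called members and 10 of 22 members not called, both 45.5%, so the motif did not separate the members that differed between the MEFs from those that were not called.

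Antigen presentation genes were higher in Actin-GFP MEFs in 11 of 21 tested members, lower in none and not called in 10 (52.4% called, median 0.447). Subunits of the immunoproteasome, which cuts peptides for display, were among them. Psmb9 read 6.91 and 6.87 in Actin-GFP and 4.98 and 4.89 in Pou5f1-GFP MEFs (1.96 ± 0.15, adjusted p = 6.65e-07), and Psmb8 read 9.45 and 9.69 against 7.96 and 7.98 (1.60 ± 0.13). Tap2, a subunit of the transporter that carries peptides into the endoplasmic reticulum, was higher by 1.34 ± 0.12, and its partner Tap1 by 0.59 ± 0.17. The called genes thus covered both the cutting and the transport of peptides.

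For the class I heavy chains that display the peptides, H2-D1 read 11.74 on both Actin-GFP arrays and 10.17 and 9.93 in Pou5f1-GFP MEFs (1.69 ± 0.12), and a second probe differed by 3.44. H2-K1 read 7.64 and 8.39 against 5.81 and 6.37 (1.93 ± 0.33). H2-Q6 was at least 2.47-fold higher, and H2-T23 was higher by 1.39 on its main probe but by 0.09 and 0.26 on its others. Class I genes are near-identical and vary between mouse strains, so which locus a probe reads is uncertain. B2m, the light chain they share, read 13.42 and 13.44 against 13.21 and 13.11 and was not called. The class II gene H2-Ab1 (-0.01 ± 0.14) and its activator Ciita (0.02 ± 0.16) were not called either.

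Chemokines and cytokines showed 21 of 45 tested genes higher in Actin-GFP MEFs, 1 lower and 23 not called (48.9% called, median 0.324), and 15 of the 21 reached 2-fold. The called genes included attractants of monocytes. Ccl3 read 7.23 and 7.26 in Actin-GFP and 5.45 and 5.04 in Pou5f1-GFP MEFs (2.00 ± 0.15, adjusted p = 5.43e-07), and Ccl4 read 8.72 and 8.92 against 7.02 and 7.14 (1.74 ± 0.13). Ccl2 read 9.09 and 8.76 against 7.62 and 7.56 (1.33 ± 0.14), Ccl7 was higher by 1.37 ± 0.15 and Ccl8 by at least 2.56-fold. The groups did not overlap for any of these, which held for all 1795 called genes and for 51.6% of all tested genes. Ccl11, which attracts eosinophils, was higher by 1.95 ± 0.16.

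Among the attractants of neutrophils, Cxcl1 read 8.91 and 8.69 against 7.26 and 6.85 (1.74 ± 0.15) and Cxcl5 read 8.21 and 8.21 against 6.10 and 7.02 (1.65 ± 0.36). Il6 was at background in Pou5f1-GFP MEFs and at least 1.83-fold higher in Actin-GFP MEFs. Its signal-transducing receptor chain, Il6st, was the 1 gene of the list that was lower, at 5.91 and 6.75 against 8.53 and 8.72 (-2.29 ± 0.24, adjusted p = 1.21e-05). The Il6st probe was at background on every iPS array, with line means between 4.30 and 4.58. Which transcript it reads was not checked. Tnfsf11 and Tnfrsf11b, the osteoclast factor RANKL and its decoy receptor, were higher by 1.06 ± 0.15 and 1.03 ± 0.16. Csf1, the growth factor read by Csf1r, was not called (8.75 and 8.99 against 8.38 and 8.56), nor was Cxcl12, a chemokine of stromal cells (11.98 and 12.05 against 12.45 and 12.30).

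Complement genes gave 4 higher, 1 lower and 6 not called of 11 tested (45.5% called, median 0.258). Cd59a, which protects the cell's own membrane from the lytic complex, read 9.59 and 9.58 against 7.89 and 7.73 (1.78 ± 0.12, adjusted p = 1.47e-07). Cfp, or properdin, which stabilises the alternative pathway convertase, was higher by 1.22 ± 0.12, C2 by 1.15 ± 0.15 and the membrane regulator Cd55 by 0.83 ± 0.15. Clu, an extracellular chaperone that also binds the lytic complex, was lower (-0.86 ± 0.14). C3, the central component, read 5.73 and 5.41 against 5.32 and 5.31 and was not called.

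Striated muscle genes ran the other way. Of 37 tested genes, 14 were lower in Actin-GFP MEFs, 2 were higher and 21 were not called (43.2% called, median -0.135). The summed signal was 2403 and 2392 in Actin-GFP against 3052 and 3093 in Pou5f1-GFP MEFs, and 7 of the 14 reached 2-fold. Their signals were low, and 35 genes of the list on the array were detected too rarely to be tested. Of those called lower, Des, Atp2a1, Tnnt3 and Tnni1 were detected on the 2 Pou5f1-GFP arrays and on no other. They entered the test only through the type in which they are high, so the filter set their direction.

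The called genes included sarcomere proteins of embryonic and slow muscle. Myh3, the embryonic myosin heavy chain, read 5.07 and 5.20 in Actin-GFP and 7.20 and 7.37 in Pou5f1-GFP MEFs, a 4.44-fold difference (-2.15 ± 0.23, adjusted p = 1.62e-05). Myl4, the embryonic and atrial myosin light chain, read 7.33 and 7.29 against 8.44 and 8.60 (-1.21 ± 0.15). The troponins Tnnt2, at 6.27 and 6.28 against 7.59 and 7.49, and Tnnc1, at 6.50 and 6.57 against 7.65 and 7.82, were lower by 1.26 and 1.20 on the log2 scale (-1.26 ± 0.13 and -1.20 ± 0.15). In all of these the Pou5f1-GFP arrays lay together and above both Actin-GFP arrays, and the latter held for every gene called lower. Actc1, cardiac actin, had a difference of -1.0 on its main probe and of -2.59 on a second one. Chrna1, the acetylcholine receptor subunit of the nerve-muscle junction, was lower by 1.37 (-1.37 ± 0.19), and Actn2, which anchors thin filaments, was not above background in Actin-GFP MEFs, at least 1.77-fold lower. Tnnt1 and Pgam2 were lower by 0.93 and 0.55 (-0.93 ± 0.17 and -0.55 ± 0.13). Des, Atp2a1, Tnnt3 and Tnni1 were not above background in Actin-GFP MEFs, at least 1.59, 1.5, 1.41 and 1.33-fold lower. Cdh15 was called but lay too close to background for a bound.

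Most genes that start the muscle programme were not detected. Myod1, Myog, Pax3 and Pax7 were at background on all 4 MEF arrays, as were the adult muscle genes Ckm and Myl1, and Myf5 was detected on 1 Pou5f1-GFP array. Acta1, skeletal actin, read 8.48 and 8.30 in Actin-GFP and 8.42 and 8.29 in Pou5f1-GFP MEFs, a difference of 0.04 ± 0.18. Myom2 and Eno3, an M-band protein and the muscle enolase, were the 2 called higher, Myom2 by at least 1.39-fold from background in Pou5f1-GFP MEFs and Eno3 by 0.60 ± 0.17.

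A pair of muscle promoters is shown for their E-box, the site CAGCTG bound by the MyoD family in muscle cells. They are the 150 bases before the start of Chrna1, at chr2:73580339-73580488 on the minus strand, and of Tnni1, at chr1:135799271-135799420 on the plus strand (RefSeq, GRCm38.p6), with each match in capitals. The site reads the same on both strands.
Chrna1: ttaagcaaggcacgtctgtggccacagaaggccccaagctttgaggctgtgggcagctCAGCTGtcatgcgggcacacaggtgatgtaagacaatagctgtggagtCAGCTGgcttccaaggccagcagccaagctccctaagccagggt
Tnni1: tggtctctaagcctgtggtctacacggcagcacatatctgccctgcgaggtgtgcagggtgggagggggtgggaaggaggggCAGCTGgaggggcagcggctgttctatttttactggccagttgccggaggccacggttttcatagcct
CAGCTG stood in the window from 250 bases before to 50 after the start in 18.0% of the tested genes searched, and in 11 of 30 tested muscle genes (36.7%). It was present in 7 of 14 called and in 4 of 16 members not called. The called members with the site included Eno3, which was higher in Actin-GFP MEFs.

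**Figure D3:**
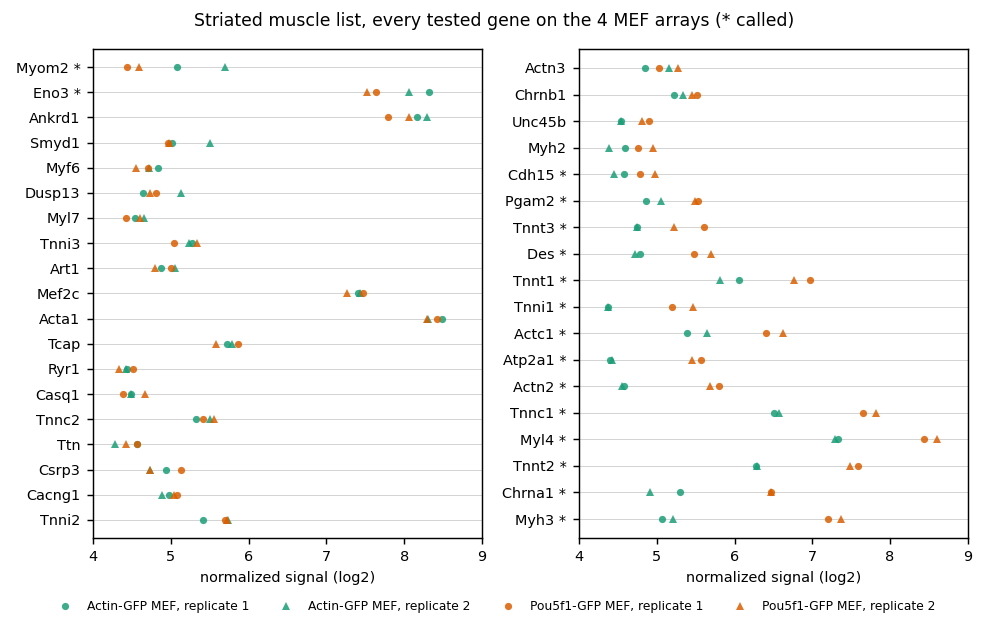
Normalized log2 signal of all 37 tested striated muscle genes on the 4 MEF arrays, ordered by the difference between the types, with the first replicate as circles, the second as triangles and called genes marked by an asterisk. From Cdh15 down to Myh3 in the second column the Pou5f1-GFP points lie to the right. Acta1 coincides in both types.

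Smooth muscle genes, which cultured fibroblasts also use, gave 4 lower, 1 higher and 21 not called of 26 tested (19.2% called, median -0.127). Acta2, smooth muscle actin, read 14.48 and 14.38 in Actin-GFP and 14.40 and 14.42 in Pou5f1-GFP MEFs, and Tagln read 9.80 and 9.68 against 9.93 and 9.66. Csrp1, a LIM protein of the cytoskeleton, read 9.75 and 9.86 against 10.73 and 11.03 (-1.07 ± 0.13, adjusted p = 4.33e-05) and was the 1 call that reached 2-fold. Notch3, the receptor of vessel mural cells (-0.78 ± 0.15), Itga8 (-0.69 ± 0.14) and Tpm1 (-0.68 ± 0.14) were lower, and Tgfb1i1, a focal adhesion protein, was higher (0.78 ± 0.12).

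Hox genes differed in both directions. Of 30 tested, 6 were higher and 4 lower in Actin-GFP MEFs and 20 were not called (33.3% called, median 0.117). Sorted by their place in the cluster, paralog groups 1 to 4 held 3 higher and 0 lower of 9, groups 5 to 9 held 3 higher and 0 lower of 12, and groups 10 to 13 held 0 higher and 4 lower of 9. None of the 7 tested Hoxa genes was called by limma, and only Hoxa2 had an unadjusted p under 0.05 (0.0423).

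The posterior end of the Hoxd cluster, which patterns the ends of the limbs and the genital bud, carried the largest Hox differences. Hoxd12 read 5.70 and 5.73 in Actin-GFP and 7.62 and 7.58 in Pou5f1-GFP MEFs, a 3.70-fold difference (-1.89 ± 0.10, adjusted p = 2.11e-08). Hoxd13 read 5.55 and 5.44 against 7.0 and 6.96 (-1.48 ± 0.24, adjusted p = 0.000578), and Hoxd10 read 6.77 and 6.40 against 7.85 and 7.48 (-1.08 ± 0.17, adjusted p = 0.000399). For Hoxd12 and Hoxd13, the Actin-GFP values fell in the range of ES cells and the iPS lines, whose means lay between 5.35 and 5.73 for Hoxd12 and between 5.32 and 5.95 for Hoxd13. Between them in the cluster, Hoxd11 read 5.08 and 4.86 against 4.76 and 5.02 and was not called. It was detected on 1 array of each type, so close to background that a fall in Actin-GFP MEFs could not show. Hoxb13, the last gene of its cluster, was not above background in Actin-GFP MEFs, at least 1.27-fold lower. It was detected on the Pou5f1-GFP arrays alone and entered the test only through them, so the filter set its direction.

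The genes called higher belong to the anterior and trunk groups, and their differences were smaller. Hoxb9 read 6.63 and 6.82 against 5.80 and 5.86 (0.90 ± 0.16, adjusted p = 0.00119), and Hoxd8 read 8.57 and 8.63 against 7.86 and 7.75 (0.79 ± 0.15, adjusted p = 0.00194). Hoxb4, Hoxc6, Hoxd4 and Hoxb2 were higher by 0.55, 0.53, 0.50 and 0.41, and a second Hoxc6 probe by 0.10. These smaller calls depended on the number of arrays: leaving out any 1 of the 4 MEF arrays left 2 or 3 Hox genes higher and 3 or 4 lower, and 5 or 6 called in all.

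**Figure D4:**
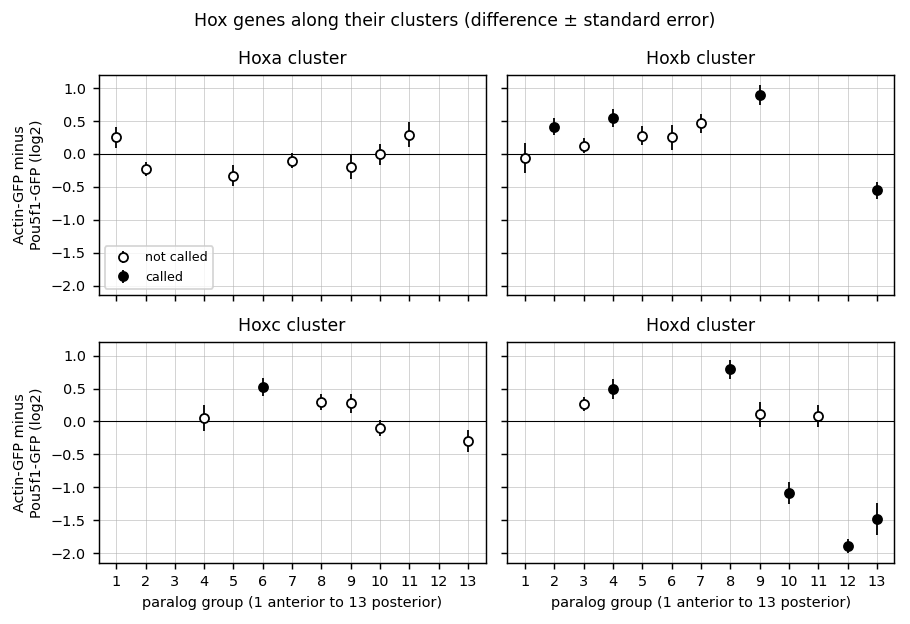
Difference in log2 signal, Actin-GFP minus Pou5f1-GFP MEFs, of the 30 tested Hox genes against paralog group, 1 panel per cluster. Bars are standard errors and filled points are called genes. Hoxd10, Hoxd12 and Hoxd13 lie between -1.08 and -1.89, while the called genes of groups 2 to 9 lie between 0.41 and 0.90.

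Other transcription factors of limb, somite and body position were mostly lower in Actin-GFP MEFs where they were called: 11 lower, 1 higher and 38 not called of 50 tested (24% called, median -0.124). Pax1, a factor of the ventral somite that forms vertebrae, read 6.46 and 6.55 in Actin-GFP and 8.59 and 8.53 in Pou5f1-GFP MEFs (-2.05 ± 0.11, adjusted p = 2.16e-08). Meox1, another somite factor, read 6.53 and 6.39 against 7.96 and 7.86 (-1.45 ± 0.15, adjusted p = 1.33e-05). Isl1 and Tbx4, which act in the early hindlimb, were lower by 1.25 and 0.80 (-1.25 ± 0.16 and -0.80 ± 0.13), whereas Tbx5, the forelimb factor, read 6.56 and 6.68 against 6.73 and 6.70. Msx1, a factor of undifferentiated distal mesenchyme, read 8.85 and 8.88 against 10.06 and 9.98 (-1.15 ± 0.14). Osr2, Meox2, Msx2, Alx4 and Twist1 were lower by 0.46 to 0.88, and Tbx2 by at least 1.28-fold. En1, which marks ventral limb ectoderm and some dermal fibroblasts, was the 1 gene higher (0.59 ± 0.11). The general limb mesenchyme factors Prrx1 (0.17 ± 0.17) and Shox2 (-0.11 ± 0.16) were not called.

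Imprinted genes were lower in Actin-GFP MEFs in 9 of 49 tested members, higher in 1 and not called in 39 (20.4% called, median -0.128). The count of 10 called fell to 5 when arrays were not normalized to each other. Rian, a maternally expressed noncoding RNA of the Dlk1-Meg3 domain, had 4.35 and 4.59, or background, on the Actin-GFP arrays and 7.75 and 7.77 on the others, at least 7.17-fold lower (adjusted p = 8.02e-10). It was also at background in the lines OSCE 8 and OSCE 13, while ES cells and the other lines had means between 6.09 and 6.61. Meg3, the neighbouring noncoding RNA read from the same parental copy, was not called: 10.75 and 10.82 against 10.88 and 11.06 (-0.18 ± 0.18). Dlk1, the paternally expressed gene of the domain and a membrane protein that holds back differentiation, read 12.46 and 12.71 against 13.69 and 13.66 (-1.09 ± 0.15, adjusted p = 0.000117), and its second probe was lower by 1.29 (-1.29).

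Outside that domain, Cdkn1c, the cell cycle inhibitor p57, read 12.18 and 12.26 in Actin-GFP and 13.20 and 13.07 in Pou5f1-GFP MEFs (-0.92 ± 0.14, adjusted p = 0.000329). Mest, a paternally expressed hydrolase-like gene, was lower by 0.66 on its main probe and by 0.19 on another (-0.66 and -0.19). Ppp1r9a, Cobl, Mkrn3, Zdbf2 and Zim1 were lower by 0.51 to 0.88, and Atp10a was higher by 0.39 ± 0.12 (adjusted p = 0.0468). The reciprocally imprinted pair Igf2 and H19 was not called. Igf2, the fetal growth factor, read 14.70 and 14.67 against 14.75 and 14.70, and H19 read 13.68 and 13.49 against 14.13 and 13.90 (-0.43 ± 0.19). Grb10 (-0.13 ± 0.14), Peg3 (0.18 ± 0.13) and Igf2r (-0.35 ± 0.14) were not called either.

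**Figure D5:**
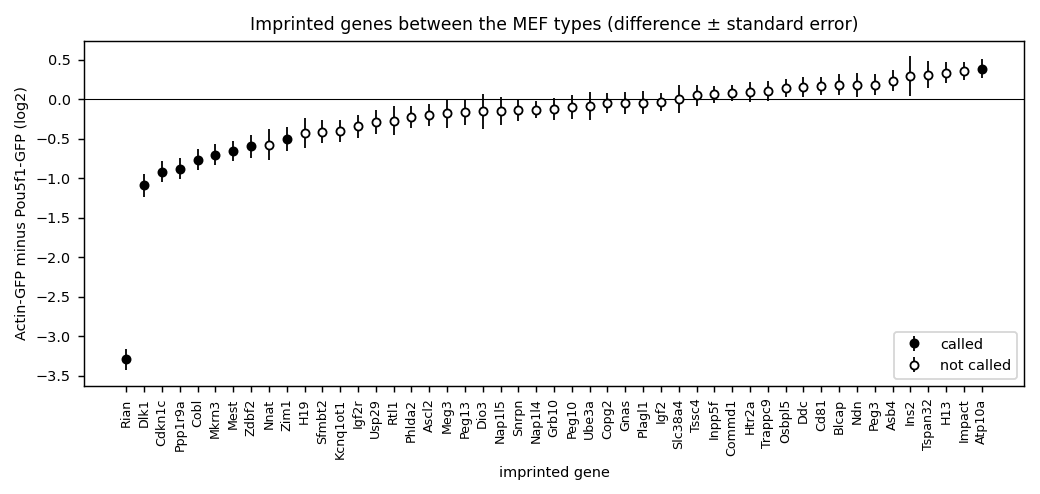
Difference in log2 signal, Actin-GFP minus Pou5f1-GFP MEFs, of the 49 tested imprinted genes in order of size, with standard errors and called genes as filled points. Rian, the lowest point, was at background in Actin-GFP MEFs. It is drawn at its estimate of -3.30, while the bound against background is at least 7.17-fold. The other called genes lie between -1.09 and -0.51, apart from Atp10a at 0.39.

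Matrix genes split in both directions on the shared fibroblast background. Of 67 tested, 12 were higher, 10 lower and 45 not called (32.8% called, median 0.055). Structural fibre genes were among the lower ones. Eln, the precursor of elastin, read 8.98 and 9.26 in Actin-GFP and 11.07 and 11.17 in Pou5f1-GFP MEFs (-2.0 ± 0.14, adjusted p = 2.54e-07), and Col1a2, a chain of type I collagen, read 9.09 and 9.92 against 10.63 and 11.45 (-1.54 ± 0.29). Col1a1, the other chain, read 13.11 and 13.01 against 13.32 and 13.40 and was not called. Sparc, a collagen-binding protein, was lower by 1.33, Mfap5, a microfibril protein, by 0.87, and Ccn2, a growth factor of scarring, by 0.72 (-1.33 ± 0.32, -0.87 ± 0.13 and -0.72 ± 0.16). The called genes that were higher included 2 enzymes that degrade matrix: Mmp13 read 9.72 and 9.69 against 7.38 and 7.53, and Mmp3, or stromelysin, was higher by 1.01 ± 0.14. Ly6a, the surface antigen Sca-1, read 11.37 and 11.24 against 9.30 and 9.26 (2.03 ± 0.12, adjusted p = 3.48e-08). S100a4, a calcium-binding protein of motile cells and macrophages, read 11.45 and 11.53 against 9.22 and 9.96 (1.90 ± 0.20). Fbln2, a basement membrane protein, was higher by 0.77 ± 0.14.

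None of 31 tested cell cycle genes was called by limma, although 27 of their differences were below 0. Of these, 6 had an unadjusted p under 0.05, all lower in Actin-GFP MEFs. The median difference was -0.116, and at most 2 were called under any of the alternative settings. Pluripotency genes gave 0 calls among 19 tested, 3 at an unadjusted p under 0.05 and at most 2 under an alternative. Of the 19, 13 were at background on every MEF array and entered the test through the ES and iPS arrays alone. For these 13 the lack of a call does not show equal levels, because a difference below the detection level cannot be read.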

How the data were processed

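The authors exported the deposited raw table from BeadStudio 3.2.6 with no normalization and no error model, per the file headers. For 46643 probes the authors deposited linear signal intensity, the detection score as a fraction (1 minus a detection p) and the count of beads, per the file headers. The deposited series matrix holds intensity that the authors had normalized, by a method not given in the sources used here, and served as an alternative.

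Raw signal was background-corrected (normal-exponential model on detection p, offset 16), quantile normalized and put on log2 with limma 3.58.1 in R 4.3.3. Names were updated with the RefSeq gene table, 22733 of 34325 matched. Each gene took its probe with the highest mean and was kept if detected (p under 0.01) on at least 2 arrays, which left 15642 of 32089 genes. One fit with a mean per group over 16 arrays gave the contrast, with Benjamini-Hochberg adjustment over all genes and 8 residual degrees of freedom. The number of arrays limits the precision.

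The replicate number is also the slide. Same-numbered replicates deviated together, with a correlation of 0.367 between the MEF types and over 0.1 in 27 of 28 pairs of groups. The fit has no block, and blocks were run as alternatives. In simulated data 97.5% of genes changed 2-fold and 36.5% of those changed 1.5-fold were called, with 0.0712% and 0.0324% of unchanged genes. The simulated arrays varied independently and only 200 genes were changed. The data differ in both respects, so these rates may not hold for them.

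The gene lists, and the comparison itself, were chosen with earlier results of these data known. Named genes are the 12 largest rises and 12 largest falls among called genes without overlap, passing over predicted and clone names, any member of the immune, muscle, Hox, position and imprinted lists, up to 5 called members of every other list, and the reporter, Pou5f1 and sex-linked genes. Vim, Thy1, Col1a1, Cdh1 and the uncalled cartilage and keratin genes fall outside it and were chosen after their values were seen.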

Additional observations from a re-analysis of the deposited data

How the results depend on the processing

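With a replicate block 2331 genes were called and with a slide block 2350, and neither block ended any of the 189 calls among named genes and list members. No such call reversed under any of the 16 settings run. Leaving out 1 MEF array gave 1129 to 1288 called genes, lowest without the first Pou5f1-GFP array (1129) and without the first Actin-GFP array (1140), and ended 33 to 42 of the 189. The lone array left in a type was then assumed to vary like the other groups. The counts of called members then lay between 9 and 13 for interferon response, 8 and 8 for antigen presentation, 17 and 19 for chemokines, 5 and 5 for complement, 31 and 33 for macrophage genes, 12 and 13 for striated muscle, 5 and 5 for smooth muscle, 5 and 6 for Hox and 7 and 8 for imprinted genes. Without normalization between arrays 1132 genes were called, 5 of them imprinted, and the median of all genes moved to 0.0588. Requiring at least 2-fold left 460 genes, with 4 interferon response, 7 antigen presentation, 3 complement, 7 striated muscle, 1 smooth muscle, 3 Hox and 2 imprinted members. The fit of the 4 MEF arrays alone called 1660 genes, and the 10 arrays of the MEF slides 1974. On probes, 2264 were called from the raw table and 2373 from the authors' normalized table. Other background corrections and filters, averaging over detected probes, and normalizing the 4 MEF arrays alone gave 1563 to 1937 genes. For genes at background in 1 type, signal over background limits the difference to a bound.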

Other observations

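Genes of several cell types that a whole-embryo culture can hold were also measured. Of 16 tested cartilage genes, 2 were lower in Actin-GFP MEFs, both collagens: Col2a1, the main cartilage collagen, read 5.98 and 5.93 against 7.69 and 7.85 (-1.82 ± 0.19, adjusted p = 1.14e-05), and Col9a1 was at background in Actin-GFP MEFs, at least 1.72-fold lower. Sox9, the factor that directs cartilage, was higher (0.40 ± 0.11), and the other 13 genes were not called, among them Col9a2, Col9a3, Col10a1, Col11a1 and Col11a2. The share of cartilage genes called was 18.8%, against 11.5% of all genes. Some keratins of epithelia were lower, with Krt14 at least 2.09-fold lower, Krt8 at 4.95 and 5.02 against 6.13 and 6.18, and Krt7 and Krt18 lower by 0.75 and 0.68 on the log2 scale (-0.75 and -0.68). Krt19 was not called (-0.10 ± 0.16), and Krt5 and Krt15 were at background on all 4 MEF arrays. Apoa2, a lipoprotein of liver and yolk sac, was at least 1.61-fold lower. These 5 were the called genes of 17 tested epithelial genes (29.4% called against 11.5% of all genes). The epithelial cadherin Cdh1 was at 4.55 and 4.36 against 4.47 and 4.44.

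Neural genes went both ways. Snap25 and Dcx, of synapses and young neurons, were at background in Actin-GFP MEFs and at least 1.51-fold and 1.22-fold lower, while Sox10, a neural crest and glial factor, read 7.56 and 7.59 against 6.90 and 6.81 (0.72 ± 0.10) and Stmn2 was higher by 0.58 ± 0.13. Of 18 tested endothelial genes 1 was called (5.56%), the receptor Flt1 (-0.47 ± 0.12), and 7 were at background on all 4 MEF arrays. Bone and fat genes gave 2 higher, 1 lower and 6 not called of 9 tested (33.3% called). Cebpa was higher by 0.37 ± 0.10 and Dlk2 was at least 1.23-fold lower. Spp1, or osteopontin, a secreted protein of bone and macrophages, read 12.83 and 12.79 against 11.03 and 11.39 (1.60 ± 0.16, adjusted p = 5.86e-06). Among senescence and p53 genes, 3 of 26 were higher and 1 lower: Cdkn2a, the locus of p16 and p19Arf, read 8.06 and 8.26 against 7.33 and 7.23 (0.88 ± 0.16), with its other detected probes higher by 0.84 and 0.82, the death receptor Fas was higher by 0.91 on 1 probe and lower by 0.18 (-0.18) on another, Tap1 is named above, and Phlda3 was lower (-0.73 ± 0.21). Of 24 stress genes, 4 were higher and none lower: Adm (0.71 ± 0.17), Junb (0.66 ± 0.13), Ndrg1 (0.58 ± 0.12) and Hmox1 (0.50 ± 0.12). The share called was 16.7% for stress genes and 15.4% for senescence and p53 genes, not far from the 11.5% of all genes.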
